A study of Homo sapiens with 8 samples.

Results

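Promoter-proximal dnTCF1E peaks were the ChIP-seq peaks whose center lay within 2000 bp of the nearest RefSeq transcription start site (TSS), on either side. They were 1131 of the 23433 peaks in 6 deposited lists. dnTCF1EWT had 54 of 1907 peaks before induction, 333 of 5585 at 2 h and 669 of 12996 at 9 h. dnTCF1Emut had 17 of 708, 50 of 1883 and 8 of 354 at the same times. The rule used only distance and took no account of motif content, GC content or peak score.

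TCF1 is a nuclear end point of Wnt signaling. Its HMG box binds the Wnt response element (WRE), and the C-clamp of its E isoform contacts a second, GC-rich element called the Helper site. In colon cancer cells TCFs and β-catenin hold Wnt target genes active, and promoters of such genes often sit in GC-rich sequence where Helper-like letters are frequent whether or not a TCF is bound.

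The cells were DLD-1, a human colon cancer line with high endogenous Wnt signaling and its own LEF/TCF proteins. One line carried doxycycline-inducible FLAG-dnTCF1EWT, a dominant negative TCF1E that lacks the β-catenin binding domain and has an intact C-clamp. The other line carried FLAG-dnTCF1Emut, the same protein with a mutated C-clamp. Each line was untreated (0 h) or induced for 2 h or 9 h, and FLAG-bound chromatin was set against that line's input. Each list came from pooled duplicate cultures, so there was no replicate spread for any value. Intervals and Fisher's exact tests therefore compare lists of peaks and cover counting error only. The protein, the cell line that carries it and its libraries cannot be told apart, and the sequencing depth is unknown. Peaks of the untreated lists were recorded where no induced protein was present, and are given beside the induced values as background.

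The upstream sequences of 4 genes named below are shown because the 2 h dnTCF1EWT peak spanned all 250 bases by its listed distance and length, and because they differ in motif content. They are from RefSeq (GRCh38.p14), read 5′ to 3′ on the strand of the gene and end at the base before the TSS. Capitals mark matches on either strand to the WRE (CTTTG, then 2 bases that are A or T, then C or G) or to the Helper site (ACCGCC or GCCGCC). The windows are SP5 at chr2:170715087-170715336 (plus strand), ING4 at chr12:6663120-6663369 (minus strand), HIST1H4K (now H4C12) at chr6:27831561-27831810 (minus strand) and HIST1H4J (now H4C11) at chr6:27823842-27824091 (plus strand).
SP5: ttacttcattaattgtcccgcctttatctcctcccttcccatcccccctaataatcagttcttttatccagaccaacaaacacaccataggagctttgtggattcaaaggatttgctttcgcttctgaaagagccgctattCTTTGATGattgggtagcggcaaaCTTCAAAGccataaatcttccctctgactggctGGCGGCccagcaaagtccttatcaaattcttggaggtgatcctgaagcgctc
ING4: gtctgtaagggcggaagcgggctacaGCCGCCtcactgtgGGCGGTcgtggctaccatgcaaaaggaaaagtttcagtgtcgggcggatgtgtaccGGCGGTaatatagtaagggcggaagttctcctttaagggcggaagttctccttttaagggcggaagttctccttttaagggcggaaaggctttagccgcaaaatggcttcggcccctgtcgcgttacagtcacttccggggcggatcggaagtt
HIST1H4K: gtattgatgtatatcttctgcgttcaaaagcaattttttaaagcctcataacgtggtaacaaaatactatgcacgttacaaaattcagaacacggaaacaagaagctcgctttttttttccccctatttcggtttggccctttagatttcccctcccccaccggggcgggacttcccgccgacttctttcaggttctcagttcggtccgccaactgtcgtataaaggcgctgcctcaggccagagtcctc
HIST1H4J: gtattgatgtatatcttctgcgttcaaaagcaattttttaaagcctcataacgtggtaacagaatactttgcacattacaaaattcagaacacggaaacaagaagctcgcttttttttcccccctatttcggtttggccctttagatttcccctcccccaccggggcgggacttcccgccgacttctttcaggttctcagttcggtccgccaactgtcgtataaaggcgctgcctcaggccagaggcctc
SP5, a transcription factor gene induced by Wnt signaling, held 2 WRE matches and 1 Helper match in this window. The WRE matches began 109 and 85 bp upstream of the TSS and the Helper match began 52 bp upstream. ING4, which encodes a chromatin reader of the inhibitor of growth family, held 3 Helper matches and no WRE. The histone H4 gene windows held neither, and 245 of their 250 bases were identical, so reads could be assigned to the wrong copy. Peak coordinates are on hg19, and the TSS in the peak lists can differ from that of RefSeq.

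Among all 27305 genes with a RefSeq promoter in the table, 35.5% held a Helper match and 5.61% a WRE in the 250 bases before the TSS. Of the 315 genes with a promoter-proximal dnTCF1EWT peak at 2 h, 226 matched the table. A Helper match was found in 45.1% of these (Wilson 95% interval 38.8 to 51.6) and a WRE in 6.19% (3.73 to 10.1). The median GC content of the 226 windows was 63%, against 58% for all genes, and its part in the Helper share was not tested. For peaks centered from 250 bp upstream to 50 bp downstream of the TSS, where the peak and the window coincide best, 30 of 36 genes matched. Of these 30 promoters, 7 (23.3%, 11.8 to 40.9) held a WRE and 16 (53.3%, 36.1 to 69.8) held a Helper match. At 9 h the corresponding WRE count was 3 of 26 promoters (11.5%, 4.0 to 29.0).

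The first question was how often each protein was found near a TSS. Promoter-proximal peaks made up 5.96% of the dnTCF1EWT list at 2 h and 2.66% of the dnTCF1Emut list. The odds ratio was 2.32 (95% interval 1.71 to 3.21, Fisher's exact test, adjusted p = 1.41e-08). Within strata of GC content it was 1.25 (0.868 to 1.81, Mantel-Haenszel chi-square, adjusted p = 0.377), so this difference was not called once peaks of like GC content were compared. The dnTCF1EWT share was also above the 2.83% of its untreated list (odds ratio 2.18, 1.62 to 2.97, adjusted exact p = 9.26e-08), and that difference held within GC strata (2.53, 1.87 to 3.42). Among peaks that scored above 67 it was not called (2.06, 1.07 to 4.46, adjusted exact p = 0.0506). The dnTCF1Emut share at 2 h did not differ detectably from the 2.40% of its untreated list (odds ratio 1.11, 0.623 to 2.07, adjusted exact p = 0.789).

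At 9 h the dnTCF1EWT list held more promoter-proximal peaks than at 2 h but a smaller share of them, 5.15% (odds ratio 0.856, 0.746 to 0.983, adjusted exact p = 0.0384). It was not called among the top 1000 peaks (1.02) or above a score of 67 (0.945), and the direction turned when peaks annotated to SINE elements, the repeat class that holds Alu, were left out. The share was then 12.7% at 9 h and 9.15% at 2 h (odds ratio 1.45, 1.22 to 1.72, adjusted exact p = 3.10e-05). SINE elements made up 78.1% of the peaks away from a TSS at 9 h and 51.2% at 2 h, and 41.3% and 22.5% of the promoter-proximal peaks. The annotation gives 1 label a peak, and members labelled promoter-TSS could not carry the SINE label. None of the 54 members at 2 h and 89 at 9 h in the last 500 bp upstream carried it. The member shares are therefore too low, and leaving out SINE peaks acted unequally on members and other peaks. The 9 h dnTCF1EWT share exceeded the 2.26% of dnTCF1Emut (odds ratio 2.35, 1.17 to 5.50, adjusted exact p = 0.0234), a comparison that rests on 8 dnTCF1Emut peaks and was not called within GC strata (1.43, 0.656 to 3.14, Mantel-Haenszel chi-square, adjusted p = 0.609), within 1000 bp of the TSS (1.87) or without peaks over a 0 h peak (2.43).

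The peaks lay about as often upstream as downstream of the TSS. Upstream centers made up 166 of 333 dnTCF1EWT peaks at 2 h and 341 of 669 at 9 h (odds ratio 0.956, 0.729 to 1.25, adjusted exact p = 0.789). They made up 26 of 50 dnTCF1Emut peaks at 2 h and 27 of 54 untreated dnTCF1EWT peaks. Within 500 bp of the TSS lay 31.2% of the 2 h dnTCF1EWT members (26.5 to 36.4), 23.5% of those at 9 h (20.4 to 26.8) and 20.0% of the 2 h dnTCF1Emut members (11.2 to 33.0). The peak itself reached the TSS for 33 of 333 dnTCF1EWT members at 2 h, 44 of 669 at 9 h and 6 of 50 dnTCF1Emut members.

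**Figure D1:**
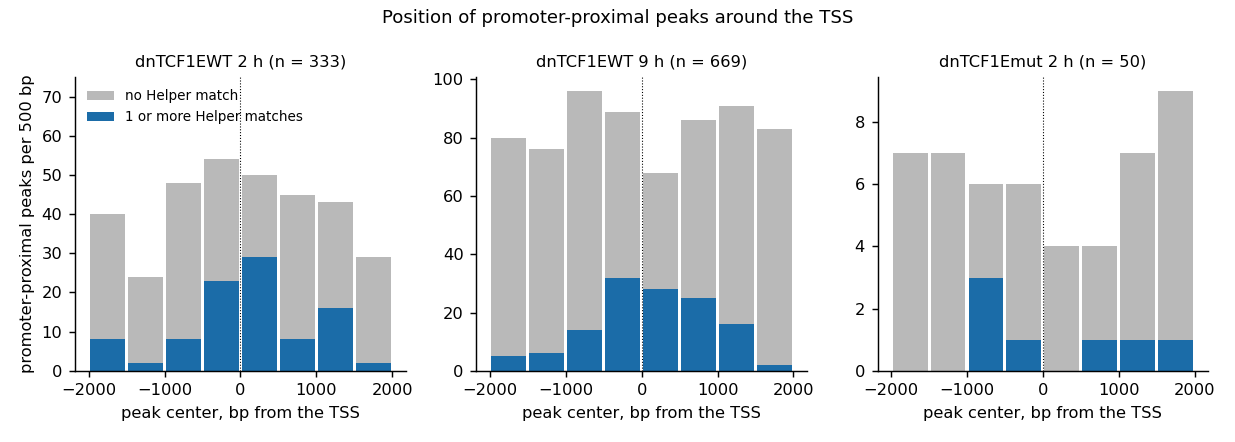
Number of promoter-proximal peaks per 500 bp (vertical axis, a separate scale in each panel) against the distance of the peak center from the TSS in bp, negative upstream, for dnTCF1EWT at 2 h and 9 h and dnTCF1Emut at 2 h, with the blue part of each bar holding 1 or more Helper matches. In the 2 h dnTCF1EWT list 23 of the 54 peaks in the last 500 bp upstream and 29 of the 50 in the first 500 bp downstream held a Helper match, against 2 of 29 in the bin from 1500 to 2000 bp.

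Helper sites marked the promoter-proximal peaks of every induced list that was tested. At 2 h, 96 of 333 dnTCF1EWT members (28.8%, 24.2 to 33.9) held a Helper match, against 7.23% of all peaks in that list and 5.86% of those away from a TSS. The odds ratio of promoter-proximal against other peaks was 6.50 (4.94 to 8.51, Fisher's exact test, adjusted p = 1.29e-34). At 9 h, 128 of 669 (19.1%) held one, against 4.83% of all peaks (odds ratio 5.60, 4.49 to 6.94, adjusted exact p = 1.41e-42). For dnTCF1Emut at 2 h it was 7 of 50 (14.0%), against 4.35% of all peaks (odds ratio 3.81, 1.40 to 8.93, adjusted exact p = 0.00961). Within GC strata the odds ratios were 3.63 (2.65 to 4.99), 3.47 (2.70 to 4.46) and 3.42 (1.38 to 8.46). The difference between the dnTCF1EWT and dnTCF1Emut odds ratios at 2 h was tested and was not called (ratio 1.62, Woolf chi-square, adjusted p = 0.637). In the untreated dnTCF1EWT list 11 of 54 members (20.4%, 11.8 to 32.9) held a Helper match, a share that did not differ detectably from that at 2 h (odds ratio 1.58, 0.762 to 3.55, adjusted exact p = 0.304).

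Between the proteins at 2 h, the Helper share of promoter-proximal peaks was higher for dnTCF1EWT than for dnTCF1Emut, 28.8% against 14.0% (odds ratio 2.48, 1.06 to 6.78, adjusted exact p = 0.0384). Within GC strata the direction turned (0.707, 0.262 to 1.91, Mantel-Haenszel chi-square, adjusted p = 0.761), and the call was also lost within 1000 bp of the TSS (1.58), without peaks over a 0 h peak (2.11) and without chromosome Y (2.45). It was kept within strata of peak length (7.41, 2.91 to 18.9, Mantel-Haenszel chi-square, adjusted p = 4.49e-05). The call was also kept among the top 1000 peaks (5.13), above a score of 67 (2.83) and without SINE peaks (3.54). The median GC content of these peaks was 52.4% for dnTCF1EWT and 39.3% for dnTCF1Emut, and their median lengths were 205 and 480 bp. In the dnTCF1EWT lists the members nearest the TSS held Helper matches most often. Of the 104 dnTCF1EWT members within 500 bp at 2 h, 52 held one, an interval of 40.6 to 59.4%, against 19.2% (14.6 to 24.8) of the 229 farther out. The order was the same at 9 h, with 60 of 157 and 68 of 512, and in the untreated list, with 8 of 13 and 3 of 41. It was not seen at this limit in the 50 dnTCF1Emut members at 2 h. There 1 of 10 within 500 bp (1.79 to 40.4%) and 6 of 40 farther out (7.06 to 29.1%) held a match. Within 1000 bp, however, 5 of 20 dnTCF1Emut members held one, against 7 of all 50. The dnTCF1Emut order thus depended on the limit and rests on few peaks.

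**Figure D2:**
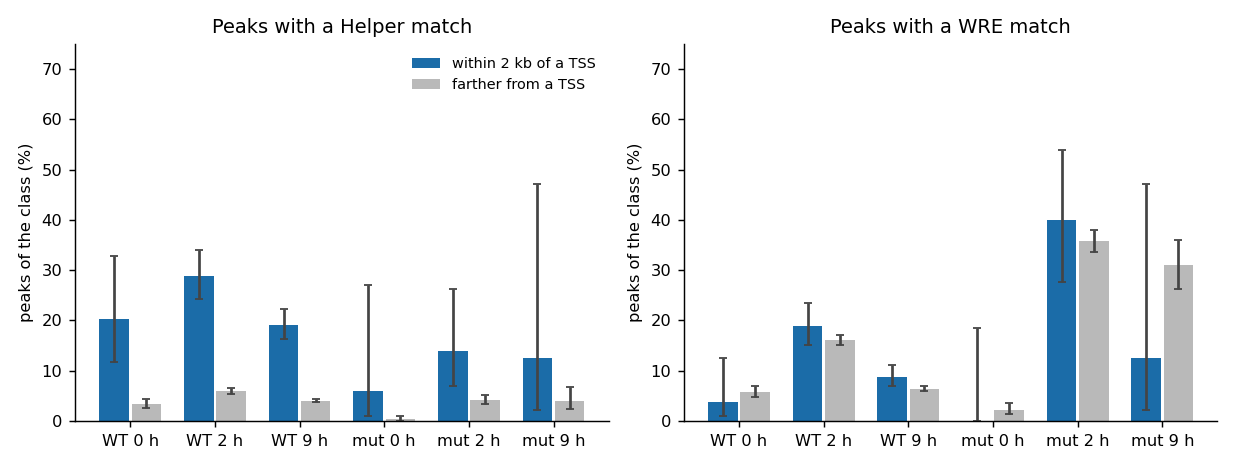
Percent of peaks with a Helper match (left) or a WRE (right) in each of the 6 lists, for peaks within 2 kb of a TSS (blue) and peaks farther away (gray), with Wilson 95% intervals. The Helper share near the TSS exceeded that elsewhere in the lists tested (28.8% against 5.86% for dnTCF1EWT at 2 h). The WRE shares of the classes, counted without strata, lay closer together (18.9% against 16.1% in that list), and their order changed with the setting.

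**Figure D3:**
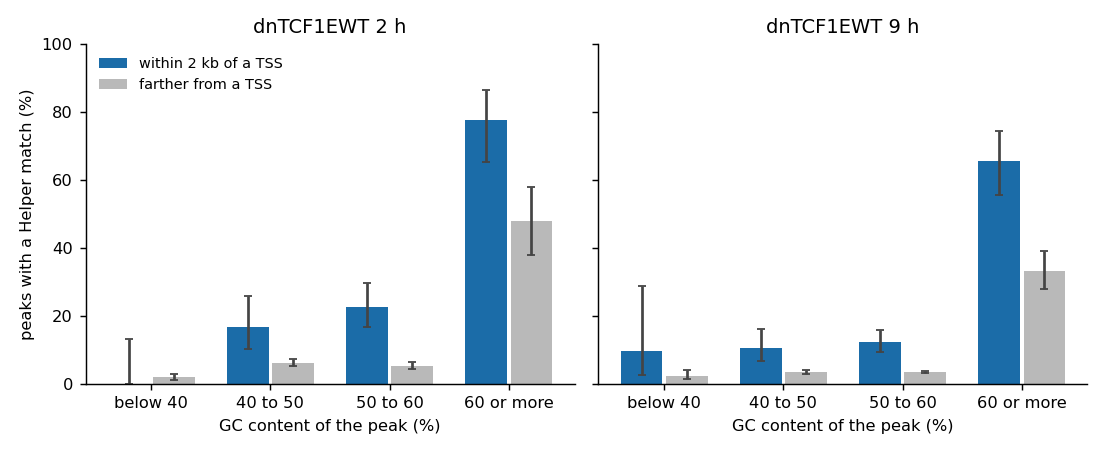
Percent of dnTCF1EWT peaks with a Helper match at 2 h (left) and 9 h (right) by GC content of the peak, for peaks within 2 kb of a TSS (blue) and farther away (gray), with Wilson 95% intervals. From 60% GC upward 77.6% of promoter-proximal peaks at 2 h held a match against 47.8% of the others, and from 50 to 60% GC it was 22.5% against 5.34%.

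Counted without strata, WRE shares near the TSS lay close to those of the whole list, but the comparison changed direction with the setting. At 2 h, 63 of 333 dnTCF1EWT members (18.9%, 15.1 to 23.5) held a WRE, against 16.3% of all peaks in the list (odds ratio against other peaks 1.21, 0.897 to 1.62, adjusted exact p = 0.247). At 9 h it was 59 of 669 (8.82%), against 6.56% of all peaks (odds ratio 1.41, 1.05 to 1.86, adjusted exact p = 0.0323). For dnTCF1Emut at 2 h it was 20 of 50, against 36.0% of all peaks (odds ratio 1.19, 0.637 to 2.19, adjusted exact p = 0.636). Without SINE peaks both dnTCF1EWT comparisons turned: a WRE was then less frequent near the TSS, with odds ratios of 0.647 (0.469 to 0.882, adjusted exact p = 0.00840) at 2 h and 0.495 (0.361 to 0.668, adjusted exact p = 2.98e-06) at 9 h. Members labelled promoter-TSS could not carry the SINE label, so the classes were filtered unequally. The part of this labelling in the turn was not tested. The 9 h difference was also not called above a score of 67 (1.18), among the top 1000 peaks (0.859) or within strata of peak length (0.868).

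A WRE was present in a larger share of dnTCF1Emut than of dnTCF1EWT promoter-proximal peaks at 2 h (odds ratio of dnTCF1EWT against dnTCF1Emut 0.351, 0.179 to 0.698, adjusted exact p = 0.00350). Within strata of peak length it was 0.845 (0.429 to 1.67, Mantel-Haenszel chi-square, adjusted p = 0.819). The call was also lost within GC strata (0.467), within 1000 bp of the TSS (0.431), among the top 1000 peaks (0.953) and above a score of 67 (0.600). Only 2 of 54 untreated dnTCF1EWT members held a WRE, below the share at 2 h (odds ratio 6.05, 1.52 to 52.6, adjusted exact p = 0.00632). That call was lost within 1000 bp of the TSS (5.75, adjusted exact p = 0.149) and above a score of 67 (3.74, adjusted exact p = 0.405). None of the 17 untreated dnTCF1Emut members held one. All untreated peaks together held few WRE matches, 140 in 1907 dnTCF1EWT peaks and 38 in 708 dnTCF1Emut peaks. From 0 h to 2 h, WRE matches per kb of summed dnTCF1EWT peak length rose from 0.119 to 0.966 in members. In other peaks they rose from 0.292 to 0.921, so the rise was not particular to the members.

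Combined motif content and peak score went together within the 2 h dnTCF1EWT members. The 27 peaks with both motifs had a median score of 137, the 36 with a WRE alone 92.6, the 69 with a Helper match alone 77.8 and the 201 with neither 55.8. Peaks away from a TSS had the same order at 2 h (143, 102, 72.1 and 56.7), so it was not particular to the members. The score is the negative log10 of the peak caller's p-value times 10, starts at 50 and is not scaled for depth. Median peak lengths fell in the same order from 448 to 180 bp, and their part in this result was not tested.

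CpG island labels were more frequent at promoter-proximal than at other dnTCF1EWT peaks. At 2 h the detailed annotation named a CpG island for 28 of 333 members and 40 of 5252 other peaks (odds ratio 11.9, 7.0 to 20.2, adjusted exact p = 1.48e-16). At 9 h it did so for 23 of 669 and 96 of 12327 (odds ratio 4.54, 2.73 to 7.27, adjusted exact p = 1.24e-07). The 2 h difference was called in all 7 alternatives, while that at 9 h was not called without SINE peaks (1.68, adjusted exact p = 0.0531) or among the top 1000 peaks (1.82, adjusted exact p = 0.216). These counts are too low as a measure of islands at promoters, since the annotation gives 1 label a peak and the 127 and 220 members labelled promoter-TSS could not carry the island label. The observed to expected CpG ratio, which has no such limit, had a median of 0.552 in members and 0.254 in other peaks at 2 h, and of 0.489 and 0.314 at 9 h. In the untreated dnTCF1EWT list it was 0.387 and 0.25.

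GC content was higher near the TSS in all 6 lists. The medians were 53.4% against 49.5% for dnTCF1EWT at 0 h, 52.4% against 48.6% at 2 h and 52.9% against 51.3% at 9 h. For dnTCF1Emut they were 18.9% against 6.25% at 0 h, 39.3% against 37.0% at 2 h and 38.4% against 35.5% at 9 h. The low dnTCF1Emut values include peaks in AT repeats: GC was under 15% in 8 of 17 members at 0 h, 7 of 50 at 2 h and 1 of 8 at 9 h, and in none of the members of the 3 dnTCF1EWT lists.

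Promoter-proximal dnTCF1EWT peaks passed a score of 67, the limit used in the study, more often than others. At 2 h 139 of 333 did (41.7%), against 32.3% of all peaks (odds ratio 1.55, 1.22 to 1.95, adjusted exact p = 0.000553). At 9 h it was 194 of 669 (29.0%), against 20.4% of all peaks (odds ratio 1.64, 1.37 to 1.96, adjusted exact p = 1.70e-07). Without SINE peaks neither was called (0.918, 0.704 to 1.2, and 1.11, 0.885 to 1.38), although members labelled promoter-TSS could not be left out by that label. For dnTCF1Emut at 2 h it was 34 of 50 (68.0%), against 65.3% of all peaks (odds ratio 1.13, 0.604 to 2.22, adjusted exact p = 0.789).

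Next, the lists were compared at the same places. Of the 333 dnTCF1EWT members at 2 h, 78 (23.4%) overlapped a 9 h peak, against 14.4% of other 2 h peaks (odds ratio 1.82, 1.38 to 2.39, adjusted exact p = 6.56e-05). Without SINE peaks this was not called (1.27, 0.936 to 1.71, adjusted exact p = 0.174), nor was it among the top 1000 peaks (1.62, adjusted exact p = 0.0520). In 55 of the 78 (70.5%) the 2 h score was the higher one, with a median log2 ratio of 0.60. The 9 h score was the higher one in 23, among them INTS4L1, INTS4L2, UHRF1 and HOXB3. Of the 755 other 2 h peaks that overlapped a 9 h peak, 496 (65.7%) scored higher at 2 h, with a median log2 ratio of 0.31. The direction was therefore not particular to the members.

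Overlap with dnTCF1Emut went the other way. Only 21 of 333 members (6.31%) overlapped a dnTCF1Emut peak at 2 h, against 9.63% of other dnTCF1EWT peaks (odds ratio 0.631, 0.382 to 0.994, adjusted exact p = 0.0573). The difference was called without SINE peaks (0.362, 0.215 to 0.579, adjusted exact p = 6.13e-06) and among the top 1000 peaks (0.329, 0.179 to 0.571, adjusted exact p = 4.00e-05). Within GC strata it was 1.04 (0.643 to 1.68, Mantel-Haenszel chi-square, adjusted p = 0.969). Among dnTCF1EWT peaks that scored from 100 to 200, 3 of 49 members had a dnTCF1Emut partner (6.12%, 2.10 to 16.5) and 150 of 467 other peaks did (32.1%, 28.05 to 36.5). Above 200 it was 14 of 40 and 191 of 370. In 19 of the 21 shared places (90.5%) the dnTCF1EWT score was the higher one. Away from a TSS it was the higher one in 316 of 506 (62.5%), and the difference between the classes was not tested. Over the 21, the log2 ratio had a median of 2.21 in the 5 places with a Helper match in the dnTCF1EWT peak and of 0.52 in the 16 without. Depth differs between these lists by an unknown factor. The places with a match include SP5, TMEM177, YAP1 and CDCA7, whose dnTCF1EWT scores, the numerator of the ratio, were the highest of the 21. For dnTCF1EWT at 2 h against 9 h the medians were 0.63 in 43 places with a match and 0.58 in 35 without.

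**Figure D4:**
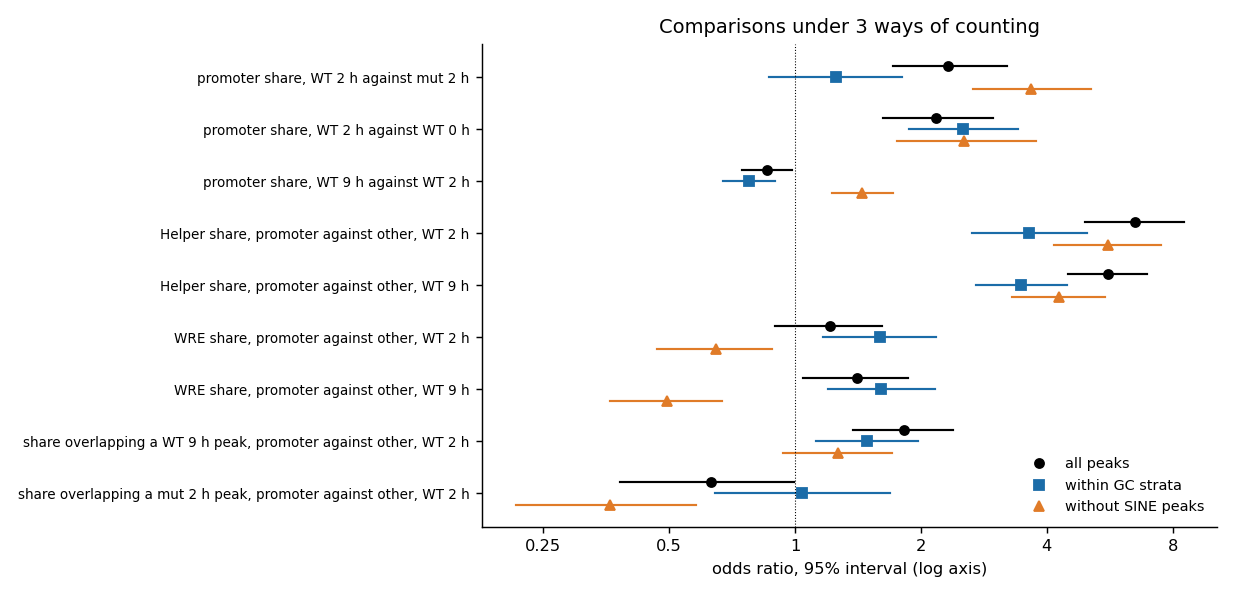
Odds ratios with 95% intervals (log axis) for 9 comparisons over all peaks (black), within GC strata (blue) and without peaks in SINE elements (orange). The Helper odds ratios stayed above 3 in each, while the WRE odds ratios and the 9 h against 2 h promoter share lay on the other side of 1 without SINE peaks. Members labelled promoter-TSS could not carry the SINE label.

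The genes nearest to the members numbered 315 for dnTCF1EWT at 2 h, 634 at 9 h and 49 for dnTCF1Emut at 2 h. The 2 h and 9 h dnTCF1EWT lists shared 84 genes, which were 26.7% of the first and 13.2% of the second. dnTCF1EWT and dnTCF1Emut at 2 h shared 21, or 6.67% and 42.9%. The 9 h dnTCF1EWT list shared 20 genes with its untreated list and the 2 h list shared 5. No share for the nearest genes of other peaks is given for these pairs of lists. The pairwise overlaps are therefore not a result about the members. Of 893 genes in the 4 induced lists, 797 (89.2%) were in 1 list only and 5 (0.560%) were in all 4. For the nearest genes of the peaks away from a TSS it was 6600 of 9666 (68.3%) and 125 (1.29%). A gene of that class can recur through different peaks far apart, so these shares do not compare recurrence of the same places. Overlap by place is given above.

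The highest promoter-proximal peak of dnTCF1EWT at 2 h was at SP5 (chr2:171571309-171572054, hg19, 176 bp upstream), with 3 WRE and 5 Helper matches. SP5 scored 1213 for dnTCF1EWT at 2 h, 506 at 9 h and 153 for dnTCF1Emut at 2 h, with no peak listed at 0 h in either line or for dnTCF1Emut at 9 h. TMEM177, which encodes a mitochondrial membrane protein, came second with 5 WRE and 1 Helper match 564 bp upstream (chr2:120435841-120436518). It scored 1053 for dnTCF1EWT at 2 h, 488 at 9 h, 228 for dnTCF1Emut at 2 h and 99.9 at 9 h. It was the highest of the 8 dnTCF1Emut members at 9 h, and neither untreated list held it.

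LGR5, the R-spondin receptor that marks intestinal stem cells, had a peak in its first intron 931 bp downstream of the TSS (chr12:71834477-71835012) with 1 WRE and 3 Helper matches. It scored 809 for dnTCF1EWT at 2 h and 123 at 9 h and was in no other list. AXIN2, a scaffold of the β-catenin destruction complex and a Wnt feedback gene, scored 206 at 2 h and 79.1 at 9 h (chr17:63557090-63557425, first intron, 70.5% GC, 1 WRE and 3 Helper matches). Both were listed for dnTCF1EWT and not for dnTCF1Emut.

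INTS4L1 and INTS4L2 are near-identical copies related to a subunit of the Integrator complex, and reads may be split between them. Their peaks held no WRE and 8 and 10 Helper matches at 2 h, 434 and 442 bp upstream (chr7:64600888-64601450 and chr7:65112063-65112608). INTS4L2 scored 679 at 2 h and 931 at 9 h, where it was the highest promoter-proximal peak, and INTS4L1 scored 576 and 869. Neither was listed for dnTCF1Emut or at 0 h. RHEB, the GTPase that activates mTORC1, likewise had no WRE and 12 Helper matches, in its 5′ UTR exon (chr7:151216492-151216947, 73.7% GC). It scored 405 at 2 h and 328 at 9 h for dnTCF1EWT alone.

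In the rest of the 10 highest 2 h dnTCF1EWT members, a Helper match was absent only at SLC7A8. A WRE was present only at FGGY and SLC7A8. FGGY, a carbohydrate kinase gene, scored 704 at 2 h and 667 at 9 h, with 1 WRE and 2 Helper matches. SLC7A8, an amino acid transporter gene, scored 614 and 125 with 1 WRE and no Helper match. ING4, whose 3 Helper matches are seen in the sequence above, scored 477 and 70.2. YAP1, the Hippo pathway coactivator gene, scored 494 at 2 h with 1 Helper match and no WRE. It was not listed at 9 h and scored 52.4 for dnTCF1Emut at 2 h. CDCA7, a chromatin protein gene, scored 466 and 99.05 for dnTCF1EWT and 138 for dnTCF1Emut at 2 h, with 1 Helper match and no WRE.

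A few members were higher at 9 h. UHRF1, which encodes a reader of hemimethylated DNA, scored 98.7 at 2 h and 402 at 9 h. HOXB3, a homeobox gene, scored 82.0 and 333. RIPK4, a kinase gene, scored 311 at 9 h and was not listed at 2 h. SLC16A1, a monocarboxylate transporter gene, scored 200 at 2 h and 230 at 9 h with 2 WRE and 1 Helper match.

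**Figure D5:**
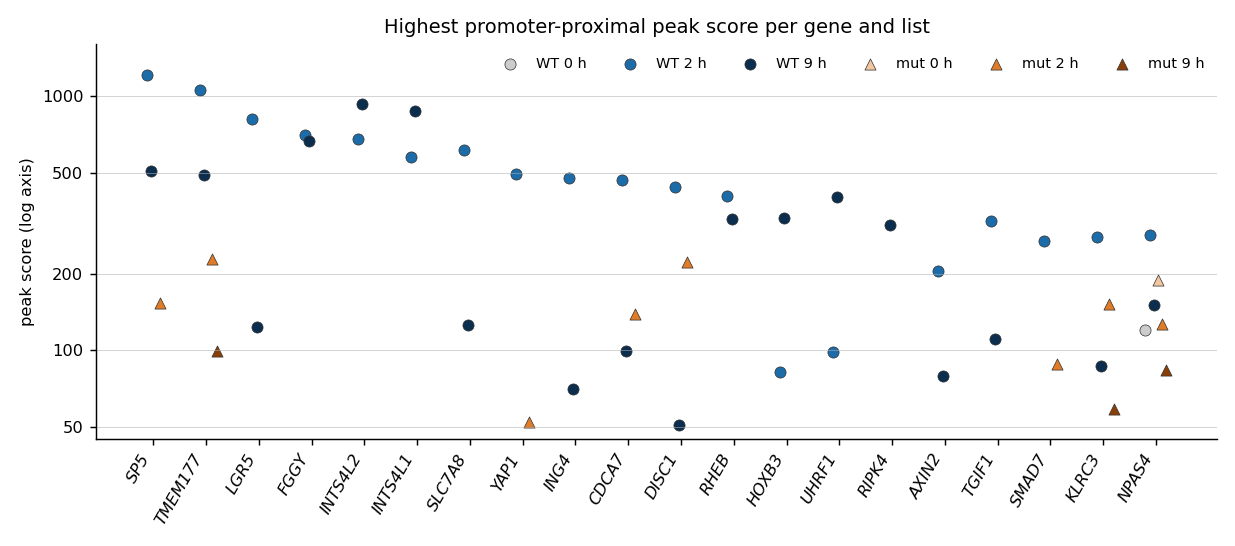
Highest promoter-proximal peak score (log axis) of 20 named genes in each of the 6 lists, circles for dnTCF1EWT and triangles for dnTCF1Emut, with no symbol where no peak was listed. SP5 and TMEM177 were highest at 2 h for dnTCF1EWT, INTS4L1, INTS4L2, UHRF1 and HOXB3 were higher at 9 h, and NPAS4 was present in all 6 lists.

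In the dnTCF1Emut list at 2 h, LOC729678 and ANO4 scored above TMEM177. The highest was LOC729678, with 7 WRE and no Helper match (297 for dnTCF1Emut, 315 and 211 for dnTCF1EWT at 2 h and 9 h). ANO4, which encodes an anoctamin membrane protein, scored 286 and had 1 WRE and no Helper match, and MIR128-1 scored 198 with neither motif. Both were in no other list. DISC1, a neuronal scaffold gene, had 1 WRE and scored 222 for dnTCF1Emut and 438 for dnTCF1EWT at 2 h. ARPC2, an actin nucleation gene, scored 211 and 265.

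Several members recurred without either motif. KLRC2, KLRC3 and KLRC4 are neighboring natural killer receptor genes of similar sequence, so their peaks may share reads. They were listed in all 4 induced lists and in neither untreated one. KLRC3 scored 279 and 86.5 for dnTCF1EWT at 2 h and 9 h and 152 and 58.7 for dnTCF1Emut, and its highest peak in each list held no WRE or Helper match. NPAS4, an activity-induced transcription factor gene, was listed in all 6 lists, with scores of 121 and 190 in the untreated dnTCF1EWT and dnTCF1Emut lists and from 83.7 to 284 after induction. HERC6 had a peak in all 3 dnTCF1Emut lists, highest untreated (295, 149 and 53.9 at 0, 2 and 9 h), at 7.54% GC in the untreated list. These peaks were present without induced protein.

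Other members of the untreated lists give the level that a peak near a TSS can reach without doxycycline. In the untreated dnTCF1EWT list LINC00273 was highest (214, and 128 at 9 h), followed by MIR3687 (183, and 225 at 9 h). CYP4F11, a cytochrome P450 gene, scored 109.8 untreated and 51.1 at 9 h. In the untreated dnTCF1Emut list C7orf50 scored 137 and CYB5R4, a reductase gene, scored 121. CYB5R4 was also listed for dnTCF1Emut (114) and dnTCF1EWT (170) at 2 h, so its induced peak stood over an untreated one. SCGB1C1 (55.1) and ALDH1A1 (52.9) completed the 8 dnTCF1Emut members at 9 h. In all, 7 of the 333 dnTCF1EWT members at 2 h, 22 of the 669 at 9 h, 7 of the 50 dnTCF1Emut members at 2 h and 3 of the 8 at 9 h overlapped a 0 h peak of either line. Among all peaks, 5492 of 5585 for dnTCF1EWT at 2 h and 12826 of 12996 at 9 h overlapped none. For dnTCF1Emut it was 1556 of 1883 at 2 h and 234 of 354 at 9 h. Members and other peaks were not tested against each other on this count.

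Of the 27305 genes in the RefSeq promoter table, 0.828% matched a gene with a promoter-proximal dnTCF1EWT peak at 2 h, 1.62% at 9 h and 0.132% for dnTCF1Emut at 2 h. The counts for the gene lists that follow are descriptions beside these shares, with no test, and the lists were chosen with earlier results known. Of 50 Wnt targets and feedback regulators, 5 had a promoter-proximal dnTCF1EWT peak at 2 h, 7 at 9 h and 1 (SP5) for dnTCF1Emut at 2 h, and none had one in an untreated list. Besides SP5, LGR5 and AXIN2, the 2 h genes were TNFRSF19, a TNF receptor family gene (155, with 2 WRE), and WIF1, a secreted Wnt inhibitor gene (54.1). SOX4, a transcription factor gene, was listed at 9 h only, with a score of 109 and 13 Helper matches but no WRE in its single exon. TLE3, a corepressor gene, scored 100 at 9 h with 2 WRE, and JAG1, a Notch ligand gene, scored 52.6.

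Of 33 TGF-beta and BMP pathway genes, 3 had a dnTCF1EWT peak at 2 h. TGIF1, a SMAD corepressor gene, scored 324 at 2 h and 110.8 at 9 h, with 3 Helper matches and no WRE. SMAD7, an inhibitory SMAD gene, scored 268 for dnTCF1EWT and 88.1 for dnTCF1Emut at 2 h, with 2 WRE and no Helper match. SMURF2, a ubiquitin ligase gene, scored 50.2. Of 40 growth signal early response genes, DUSP6, an ERK phosphatase gene, was listed at 2 h (112) and 9 h (69.7), and KLF6 and IER3 at 9 h only. None of 38 cell cycle and DNA replication genes had a promoter-proximal peak in any of the 6 lists, which beside the shares given above is not a result about that list.

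Replication-dependent histone genes had 7 dnTCF1EWT peaks at 2 h and 9 at 9 h, none with a WRE, and no dnTCF1Emut or untreated peak. This list and the others in this paragraph were drawn by symbol pattern, with no size recorded. Their shares cannot be set beside those given above. The lack of a dnTCF1Emut or untreated peak is therefore not a result about histone genes. The highest at 2 h were HIST1H4K (115, then 73.9 at 9 h) and HIST1H4J (110, then 71.3), each with 1 Helper match in the peak although none lay in the 250 bases shown above. The 2 copies of HIST2H4B scored 132 and 121 at 9 h. Zinc finger ZNF genes had 10 dnTCF1EWT peaks at 2 h and 14 at 9 h, led by ZNF114 (226) and ZNF143 (131), and 2 for dnTCF1Emut at 2 h. Each untreated list held 1. ZNF430, the higher of the 2 dnTCF1Emut genes, scored 100 at 2 h and 111 in that line untreated. MicroRNA and small nuclear or nucleolar RNA genes had 15 and 32 dnTCF1EWT peaks, 3 of them at each time with a Helper match, and 7 in the untreated list. MIR17HG, the host gene of the miR-17 cluster, had 7 Helper matches in a 157 bp peak that scored 66.97 at 2 h. Ribosomal protein-like symbols had 2 peaks at 2 h (RPL23 at 127 and RPS27L at 100) and 3 at 9 h, 1 of which (RPS6KB2) is a kinase gene.

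Just inside the distance limit at 2 h, the dnTCF1EWT peak 1995 bp from SAMD9L scored 51.5 with no WRE or Helper match, and just outside it the peak 2010 bp from FLT3LG scored 195 with neither. At 9 h the nearest pair was ARHGAP27 (1994 bp, 73.9) and CERS2 (2001 bp, 131).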

How the data were processed

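Peak lists from FLAG ChIP-seq of both DLD-1 lines, untreated and after 2 and 9 h of induction, were analysed. Per the submitters' processing notes, the authors used CASAVA 1.8.2, Bowtie2 2.0.0, MACS 1.3 and HOMER 3.16 on hg19. Replicates were pooled by the authors before peak calling, so each condition is 1 list. The deposited peak score is the negative log10 of the p-value times 10. The deposited GC content is a fraction, shown here as percent, the deposited motif columns are counts of matches per peak, and distance to the TSS is in bp, as deposited. Depth is unknown.

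Members were peaks within 2000 bp of a TSS. Shares have Wilson 95% intervals. The 23 comparisons used two-sided Fisher's exact tests with conditional odds ratios and Benjamini-Hochberg adjustment over all 23, with a threshold of 0.05. Of these, 16 passed. Alternatives were adjusted over the comparisons run under the same setting, and strata of GC content (5% wide) or peak length (limits of 150, 200, 300 and 500 bp) were pooled by Mantel-Haenszel, with its chi-square test. A further 7 differences between odds ratios were tested on the log odds scale with Woolf's chi-square test and adjusted over the 7. Peaks of 2 lists overlapped when they shared 1 base. SINE peaks are those whose detailed annotation names the repeat class, which members labelled promoter-TSS could not carry. Python 3.11.15 with pandas 2.3.3, SciPy 1.17.1 and statsmodels 0.14.6 was used, and the functions were tested on simulated data.

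Members, gene lists and comparisons were chosen with earlier results of these data known. Named genes were the nearest genes of the 10 highest members of dnTCF1EWT at 2 h and at 9 h, the 8 highest of dnTCF1Emut at 2 h, the 5 highest of each untreated list, all dnTCF1Emut members at 9 h, genes in 3 or more of the 4 induced lists, and members of the gene lists. Genes at the distance limit were named after their values were seen. Promoter sequences came from RefSeq GRCh38.p14, matched by Entrez identifier, and no position was converted between builds. Input libraries and the plain interval files were not used here.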

Additional observations from a re-analysis of the deposited data

Results flagged for a closer look

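The excess of CpG island labels at promoter-proximal over other dnTCF1EWT peaks was larger at 2 h (odds ratio 11.9) than at 9 h (4.54). The ratio of the odds ratios was 2.61 (Woolf chi-square, adjusted p = 0.0368 over 7 such comparisons), and it was singled out because the difference itself passed its test. At 9 h, 78.1% of peaks away from a TSS were in SINE elements, against 51.2% at 2 h. Without SINE peaks the odds ratios were 7.66 (4.47 to 13.0) at 2 h and 1.68 (1.00 to 2.71, adjusted exact p = 0.0531, not called) at 9 h, and their difference was not tested again.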

How the results depend on the processing

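All values are odds ratios, in the short form promoter (promoter share), Helper, WRE, island, score and overlap (of WT 2 h peaks), where 1 list is promoter-proximal v. other peaks and v. names 2 lists. Of 168 recomputed values, 121 kept direction and side of the threshold. The cause was not tested for the rest. A limit of 1000 bp turned direction in WRE mut 2 h 0.959, and lost the call in promoter WT 9 h v. mut 9 h 1.87, Helper WT 2 h v. mut 2 h 1.58, WRE WT 2 h v. mut 2 h 0.431, WRE WT 2 h v. WT 0 h 5.75. The top 1000 peaks turned direction in promoter WT 9 h v. WT 2 h 1.02, WRE WT 2 h 0.611, WRE WT 9 h 0.859, WRE mut 2 h 0.936, and lost the call in WRE WT 2 h v. mut 2 h 0.953, island WT 9 h 1.82, overlap with WT 9 h 1.62, and gained it in overlap with mut 2 h 0.329. Scores above 67 turned direction in Helper WT 2 h v. WT 0 h 0.739, WRE WT 2 h 0.693, and lost the call in promoter WT 2 h v. WT 0 h 2.06, promoter WT 9 h v. WT 2 h 0.945, WRE WT 2 h v. mut 2 h 0.600, WRE WT 2 h v. WT 0 h 3.74, WRE WT 9 h 1.18, and gained it in overlap with mut 2 h 0.443. Leaving out peaks over a 0 h peak turned direction in score above 67 mut 2 h 0.956, and lost the call in promoter WT 9 h v. mut 9 h 2.43, Helper WT 2 h v. mut 2 h 2.11, and gained it in overlap with mut 2 h 0.581. Leaving out chromosome Y and contigs lost the call in Helper WT 2 h v. mut 2 h 2.45, and gained it in overlap with mut 2 h 0.604. Stratifying by GC turned direction in promoter mut 2 h v. mut 0 h 0.739, Helper WT 2 h v. mut 2 h 0.707, WRE mut 2 h 0.998, overlap with mut 2 h 1.04, and lost the call in promoter WT 2 h v. mut 2 h 1.25, promoter WT 9 h v. mut 9 h 1.43, WRE WT 2 h v. mut 2 h 0.467, and gained it in WRE WT 2 h 1.59. Stratifying by length turned direction in WRE WT 2 h 0.862, WRE WT 9 h 0.868, and lost the call in WRE WT 2 h v. mut 2 h 0.845, and gained it in overlap with mut 2 h 0.370. Leaving out SINE peaks (chosen after seeing the data) turned direction in promoter WT 9 h v. WT 2 h 1.45, WRE WT 2 h 0.647, WRE WT 9 h 0.495, score above 67 WT 2 h 0.918, and lost the call in island WT 9 h 1.68, score above 67 WT 9 h 1.11, overlap with WT 9 h 1.27, and gained it in overlap with mut 2 h 0.362. The other alternatives (a score of 100, 50% overlap of both peaks, no peaks reaching the TSS, and, added later, no promoter-TSS peaks) kept every result they were run on. The score comparisons had no value in the top 1000 peaks, where every peak passed 67. Leaving out SINE peaks acted unequally on members and other peaks, since members labelled promoter-TSS could not carry that label. No paired analysis was possible because each condition is 1 pooled list. The Helper odds ratios of promoter-proximal against other peaks kept their call in dnTCF1EWT under each alternative. Depth and replicate spread are unknown, which limits every comparison.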
